A study of Mus musculus with 9 samples.

Results

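Transcripts of 10 Z-disc and stretch-responsive muscle genes were followed in ventricles of mice with raised or blocked phosphoinositide 3-kinase (PI3K) activity. The genes were taken by symbol, and 8 of the 10 (Ankrd1, Csrp3, Fhl1, Xirp1, Ldb3, Tcap, Des and Actn2) had a probe set in the platform annotation, out of 8252 genes with a symbol of their own. Myoz2 and Nebl had none and were not analysed here. The 8 genes were represented by 10 of 12488 probe sets, of which 9 were bright enough to be tested, at least 1 for each gene. The samples were 9 ventricles on 9 one-colour arrays, 1 animal per array and 3 per group. Mice labelled caPI3K carried a constitutively active PI3K transgene and had hearts 20% larger than wild type littermates. Mice labelled dnPI3K carried a dominant negative form and had hearts 17% smaller. NTG mice carried no transgene and were the control for both groups. The labels and series text name no transgene promoter, line, age, strain or sex. The 3 NTG arrays serve in both comparisons with the controls, which are therefore not independent of each other.

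The Z-disc is the protein lattice at the border of each sarcomere, where actin filaments of opposite polarity are cross-linked by alpha-actinin and tied to the cell's intermediate filaments and membrane. It also holds LIM domain and ankyrin repeat proteins that can move between the lattice and the nucleus. In the heart muscle cell these are regarded as part of the sensing of stretch, and transcripts of several of them are known to rise when the ventricle is overloaded. Mutations in many Z-disc genes cause cardiomyopathy.

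The promoters of 4 members are shown because factors that act in muscle and in stretch responses bind known words. Ankrd1 and Fhl1 are the members whose caPI3K and NTG arrays did not overlap, Actn2 is the one whose dnPI3K arrays lay below NTG, and Ldb3 is a member with near equal levels. Each run is the 250 bases before a transcription start of RefSeq in build GRCm38.p6, written 5′ to 3′ on the gene's strand, with matches to the MCAT word (CATTCC, bound by TEAD factors) or to the CArG box (bound by serum response factor) in capitals. Ankrd1 (chr19:36119845-36120094, minus strand) and Fhl1 (chrX:56779433-56779682, plus strand) come first, then Ldb3 (chr14:34588682-34588931, minus strand) and Actn2 (chr13:12340733-12340982, minus strand).
Ankrd1: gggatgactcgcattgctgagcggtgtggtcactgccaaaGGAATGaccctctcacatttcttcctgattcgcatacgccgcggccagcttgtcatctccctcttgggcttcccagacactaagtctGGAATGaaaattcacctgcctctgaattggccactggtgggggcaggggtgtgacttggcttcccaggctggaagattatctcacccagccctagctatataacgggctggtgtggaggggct
Fhl1: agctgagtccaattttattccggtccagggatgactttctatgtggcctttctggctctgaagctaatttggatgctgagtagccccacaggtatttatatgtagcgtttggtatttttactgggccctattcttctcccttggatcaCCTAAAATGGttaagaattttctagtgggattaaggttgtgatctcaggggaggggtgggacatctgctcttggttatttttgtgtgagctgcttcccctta
Ldb3: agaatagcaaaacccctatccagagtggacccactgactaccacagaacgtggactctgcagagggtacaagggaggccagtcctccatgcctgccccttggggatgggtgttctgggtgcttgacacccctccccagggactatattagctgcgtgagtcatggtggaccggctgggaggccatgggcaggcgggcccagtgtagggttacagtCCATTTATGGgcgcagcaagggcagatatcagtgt
Actn2: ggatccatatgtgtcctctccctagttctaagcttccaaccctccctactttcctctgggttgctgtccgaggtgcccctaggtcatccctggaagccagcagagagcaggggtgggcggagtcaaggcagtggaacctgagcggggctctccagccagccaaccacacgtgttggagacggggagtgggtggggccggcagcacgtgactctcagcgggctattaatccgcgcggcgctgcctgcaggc
Both strands were searched. The Ankrd1 window holds 2 MCAT words, both on the opposite strand, and 12.6% of 32851 windows of this length hold at least 1. The first Fhl1 window and the first Ldb3 window each hold 1 CArG box, which occurs in 1.47% of all windows. The Ldb3 box lies 35 to 26 and the Fhl1 box 102 to 93 bases before the start. The Actn2 window holds neither word. In all, 14 windows of 8 of the 10 listed genes were found. An MCAT word lies in 2 of the 14, a CArG box in 4 (2 of which are overlapping Ldb3 windows with the same box) and a MEF2 box in 1, that of Myoz2, against 2.92% of all windows (an A and T rich word bound by MEF2 factors). The E-box (CANNTG) lies in 10 of the 14 and in 66.2% of all windows, the GATA word (AGATAA) in 3 and in 9.99%, and TATAAA in 1 and in 12.4%. These are matches of letters, not measured binding sites.

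The arrays were of like quality in most respects, and the dnPI3K arrays stood apart in some. All 9 had the same trimmed mean of 500.4 as deposited. Correlations of log2 values between arrays were 0.947 to 0.966 within groups and 0.939 to 0.959 between them, and no 2 arrays were near identical. The 3′ to 5′ ratio of Actb, a sign of RNA integrity, was 1.33 to 1.34 on dnPI3K arrays, 1.17 to 1.31 on NTG arrays and 1.03 to 1.17 on caPI3K arrays. That of Gapdh overlapped between all groups, at 0.788 to 0.835 in dnPI3K, 0.827 to 0.877 in NTG and 0.819 to 0.856 in caPI3K. The 18S ribosomal control read 3265 to 8567 on dnPI3K arrays and at most 670.6 on the others, and the hybridisation spike-ins read 1591 to 2012 against 2618 to 3356. The dnPI3K animals also share no number series with the other groups in the sample titles, so that transgene and series cannot be told apart. Within dnPI3K, replicate 1 belongs to a different number series from the other dnPI3K animals. Heart muscle markers were bright on every array, with a summed level over 9 genes of 231800 to 261300. The summed level of 10 skeletal muscle markers, which did not overlap between any of the groups, was 17840 to 24310 in caPI3K, 11560 to 14400 in NTG and 5477 to 6866 in dnPI3K, with none of the 10 on the floor on every array. Member by member the list was less uniform, with a median log2 difference of -0.15 in caPI3K and -0.49 in dnPI3K against NTG. Smooth muscle markers (5 genes) summed to 1926 to 2424, 2504 to 2987 and 3895 to 4709 in the same order. Atrial markers varied most within groups, from 2376 to 21970 in NTG and from 2660 to 14080 in caPI3K, against 9048 to 11750 in dnPI3K. The 6 atrial markers went different ways in dnPI3K against NTG, with 2 above 0 and 4 below. Nppa had a mean of 9612 in dnPI3K and 4046 in NTG. Myl7 (73.7 against 4090) and Myl4 (37.91 against 3596) were lower by the test (limma adjusted p = 0.0476 and 0.0400). Most members are also expressed in skeletal muscle, and the part of these other tissues in the members' values was not tested.

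No member passed the test in any comparison. Fhl1 was higher in caPI3K than in NTG on both of its measured probe sets and Actn2 was lower in dnPI3K than in either other group, and these were the only member genes with an unadjusted p under 0.05 against NTG. Xirp1, Des and Ldb3 kept nearly the same level in all groups. Between caPI3K and NTG 0 of 9 member probe sets passed an adjusted p of 0.05 (limma with Benjamini-Hochberg adjustment over all 10645 probe sets), where 0.0845% of all probe sets passed. At an unadjusted p under 0.05 there were 2 of 9, both of them Fhl1 and higher, against 6.9% of all probe sets in either direction and 3.68% higher. Between dnPI3K and NTG 0 of 9 passed, against 2.18% of all, and 2 had an unadjusted p under 0.05, against 14.8%. These were 1 of Fhl1, higher, and Actn2, lower, where 7.58% of all probe sets were higher and 7.23% lower. Between caPI3K and dnPI3K 0 of 9 passed, against 3.24%, and 2 (Csrp3 and Actn2) had an unadjusted p under 0.05, both higher, against 16.4% in either direction and 8.1% higher. The F test over the 3 groups called 0 of 9, against 2.63% of all probe sets, and 3 (Actn2 and both of Fhl1) had an unadjusted p under 0.05, against 15.7%.

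Read without a test, the arrays of caPI3K and NTG did not overlap for 3 member probe sets (Ankrd1 and both of Fhl1), all higher in caPI3K, against 6.5% of all probe sets that were higher without overlap. For dnPI3K and NTG it was 1 (Actn2, lower), against 9.21% of all in that direction. For caPI3K and dnPI3K it was 2 (Csrp3 and Actn2, higher in caPI3K), against 11.4%. The median log2 difference of the 9 member probe sets was 0.06 in caPI3K against NTG, 0.01 in dnPI3K against NTG and 0.09 in caPI3K against dnPI3K, and the median over all probe sets was within 0.0033 of 0 in each. Of the 9, 6, 5 and 8 lay above 0 in these comparisons, against 49.8%, 50.5% and 50.1% of all probe sets. The member differences ranged from -0.42 to 0.50, from -0.83 to 0.43 and from -0.15 to 0.73.

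**Figure D1:**
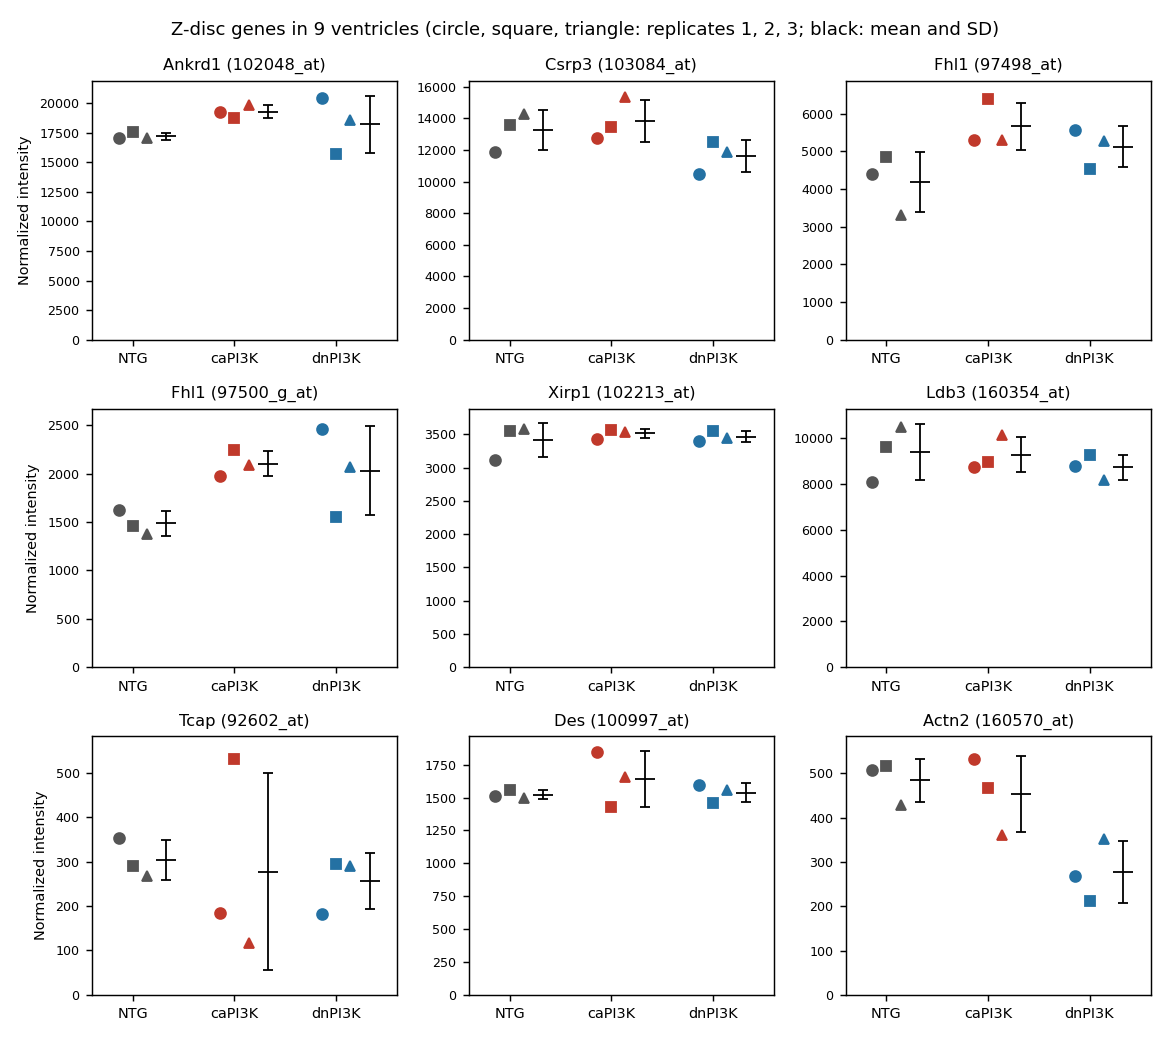
Normalized intensity (arbitrary units, axis from 0) of the 9 tested member probe sets on 9 arrays, with circles, squares and triangles for replicates 1, 2 and 3 and black bars for the group mean and SD. The caPI3K arrays of Fhl1 lie above the NTG arrays on both probe sets, and the dnPI3K arrays of Actn2 (211.4 to 351.6) lie below all others.

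**Figure D2:**
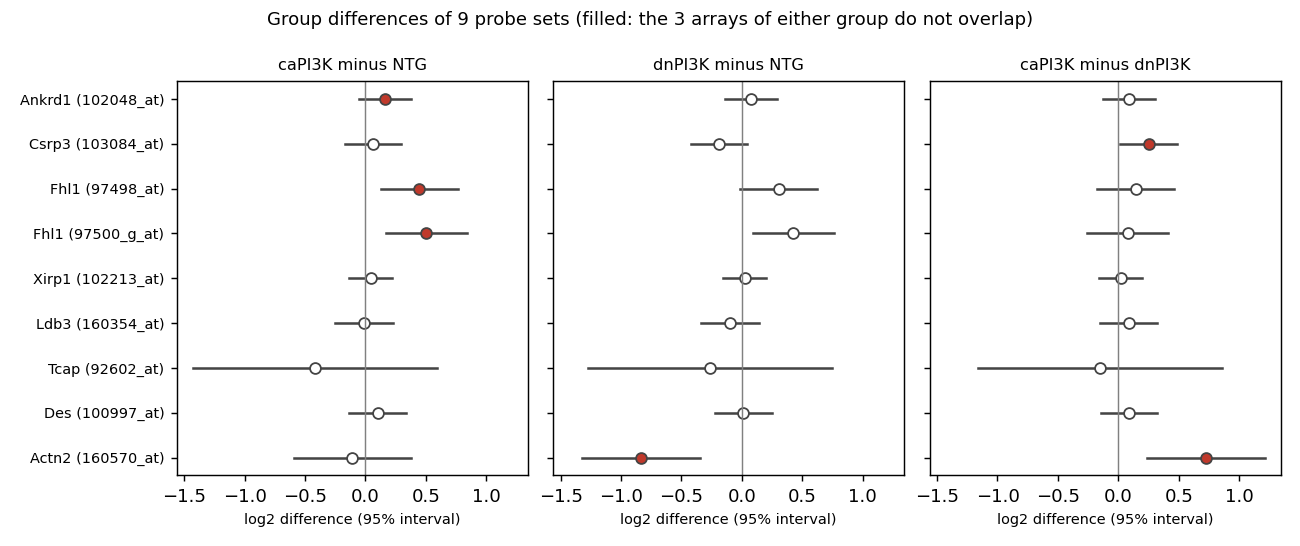
Log2 difference between groups of each tested member probe set with its 95% confidence interval, in 3 comparisons. Filled points mark probe sets whose 3 arrays of either group do not overlap, and none of the differences passed an adjusted p of 0.05.

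The cross-linker alpha-actinin 2 (Actn2), the main actin-binding protein of the cardiac Z-disc, had the largest log2 difference of the members. Its normalized intensity was 508.5, 517.1 and 428.6 on the NTG arrays, 532, 466.9 and 361.7 on the caPI3K arrays and 267.6, 211.4 and 351.6 on the dnPI3K arrays. Every dnPI3K array was below every other array, while caPI3K and NTG overlapped. The margin to caPI3K was narrow, with the highest dnPI3K array at 351.6 and the lowest caPI3K array at 361.7. The group means were 484.7 ± 48.8 in NTG, 453.5 ± 86.0 in caPI3K and 276.8 ± 70.5 in dnPI3K (SD, n = 3 each). Against NTG the log2 difference of dnPI3K was -0.83 ± 0.220 (SE), a level of 0.561 times that of NTG with a 95% interval of 0.401 to 0.785, and limma's adjusted p was 0.0914 (unadjusted 0.00310). Between caPI3K and dnPI3K it was 0.73 ± 0.220 with an adjusted p of 0.113, and between caPI3K and NTG -0.11 with an interval of -0.59 to 0.38. The F test over the 3 groups gave an adjusted p of 0.117. In a homogenate of ventricle fewer heart muscle cells and less of a transcript per cell cannot be told apart. The median log2 difference of 9 heart muscle markers was -0.09 in dnPI3K against NTG, with 0 of 9 lower by the test and 1 higher, Mybpc3 (0.46, limma adjusted p = 0.0336), the thick filament protein myosin binding protein C. Skeletal muscle markers were lower in dnPI3K together with Actn2, 8 of 9 tested below 0 and Myl1 and Casq1 past the test, and their part in the result was not tested.

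Telethonin (Tcap), which caps the titin filament at the Z-disc edge, could not be compared with any precision on this array. It read 353.3, 289.6 and 267.3 in NTG, 183.5, 530.8 and 117.8 in caPI3K and 183.1, 295 and 290.5 in dnPI3K. The lowest and the highest of the 9 values both came from caPI3K. The 95% interval of its fold in caPI3K against NTG was 0.372 to 1.51.

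Ldb3 (ZASP or Cypher), a PDZ and LIM domain protein that binds alpha-actinin, read 8074, 9634 and 10490 in NTG, 8751, 8939 and 10140 in caPI3K and 8792, 9258 and 8163 in dnPI3K. The 3 groups overlapped throughout. Its log2 difference was -0.01 in caPI3K and -0.10 in dnPI3K against NTG, and the interval of the fold was 0.839 to 1.17 for the former and 0.791 to 1.10 for the latter. The caPI3K difference turned to 0.07 when arrays were scaled to the same median and to 0.03 with array weights.

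Xirp1, an actin-binding repeat protein of the intercalated disc and Z-disc, was the most even of the members. It read 3122 to 3576 over all 9 arrays, with means of 3417 ± 256 in NTG, 3514 ± 72.4 in caPI3K and 3465 ± 81.1 in dnPI3K. The 95% interval of its fold against NTG was 0.910 to 1.17 in caPI3K and 0.898 to 1.15 in dnPI3K. As deposited, before arrays were brought to a common distribution, the caPI3K arrays of Xirp1 (3512 to 3659) all lay above the NTG arrays (3014 to 3468).

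Desmin (Des), the intermediate filament that ties neighbouring Z-discs together, read 1512, 1561 and 1494 in NTG, 1844, 1425 and 1655 in caPI3K and 1598, 1455 and 1556 in dnPI3K. The caPI3K arrays spanned the widest range and the groups overlapped. The fold was 1.07 in caPI3K (95% interval 0.912 to 1.26) and 1.01 in dnPI3K (0.858 to 1.19) against NTG.

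Among the LIM domain and ankyrin repeat members (Fhl1, Csrp3 and Ankrd1), Fhl1 had the largest differences from the controls. Fhl1 is a four-and-a-half LIM protein that binds titin and takes part in hypertrophic signalling. The brighter probe set read 4395, 4853 and 3320 in NTG, 5301, 6391 and 5301 in caPI3K and 5579, 4527 and 5285 in dnPI3K. The dimmer probe set read 1624, 1456 and 1377 in NTG, 1981, 2240 and 2094 in caPI3K and 2467, 1550 and 2070 in dnPI3K. On both, every caPI3K array was above every NTG array, and in dnPI3K replicate 2 lay inside the NTG range while the other dnPI3K arrays did not. One more Fhl1 probe set stayed at 8.83 to 34.5, on or under the floor on all 9 arrays, although the annotation gives it the same sequence record as the dimmer of the 2.

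In caPI3K against NTG the log2 difference of Fhl1 was 0.45 ± 0.144 (SE) on the brighter probe set (1.36-fold, 95% interval 1.10 to 1.70, limma adjusted p = 0.518) and 0.50 ± 0.151 on the dimmer (1.42-fold, 1.13 to 1.79, adjusted p = 0.484). In dnPI3K against NTG it was 0.30 ± 0.144 (adjusted p = 0.358) and 0.43 ± 0.151 (adjusted p = 0.21). The transgenic groups were closer to each other, at 0.14 and 0.08, with intervals of -0.17 to 0.46 and -0.26 to 0.41. Within animals numbered from 2800, with 2 arrays per group, the caPI3K difference was 0.33 and 0.45, and within those numbered from 3100, with 1 array per group, 0.68 and 0.60. Fhl1 is X-linked, and Xist, the RNA of the inactive X chromosome, read 674.8 to 1364 on all 9 arrays while 3 Y-linked genes read 5.26 to 66.8. Xist and the Y-linked genes were looked up after the values of Fhl1 had been seen.

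Csrp3 (muscle LIM protein) is a Z-disc and nuclear LIM protein whose loss causes dilated cardiomyopathy in mice. It read 11880, 13610 and 14290 in NTG, 12780, 13430 and 15340 in caPI3K and 10490, 12500 and 11880 in dnPI3K. The caPI3K arrays lay just above the dnPI3K arrays, and NTG overlapped both. The log2 difference between caPI3K and dnPI3K was 0.25 ± 0.106 (1.19-fold, 95% interval 1.01 to 1.402, limma adjusted p = 0.263). Against NTG it was 0.06 in caPI3K and -0.19 ± 0.106 in dnPI3K (adjusted p = 0.459). As deposited, all dnPI3K arrays of Csrp3 (9896 to 11720) were below all NTG arrays (11910 to 15020), and without quantile normalization the 2 differences that involve dnPI3K grew to 0.41 and -0.33 (adjusted p = 0.111 and 0.233).

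Ankrd1 (cardiac ankyrin repeat protein) is bound to titin in the I-band and to transcription factors in the nucleus, and is a familiar marker of pressure overload. It read 17020, 17550 and 17020 in NTG, 19280, 18710 and 19810 in caPI3K and 20390, 15670 and 18540 in dnPI3K. The caPI3K arrays were above all NTG arrays by a narrow margin, and the dnPI3K arrays spread over the range of both. The fold in caPI3K against NTG was 1.12 (95% interval 0.964 to 1.30, log2 difference 0.16 ± 0.0981, limma adjusted p = 0.784). The difference was 0.14 in animals numbered from 2800 and 0.22 in those from 3100. In dnPI3K against NTG the log2 difference was 0.07 after quantile normalization, but -0.16 on the deposited values and -0.09 with arrays scaled to the same median, so that no direction can be given. The same choice moved the difference between caPI3K and dnPI3K from 0.09 to 0.39 (adjusted p = 0.0849). Ankrd1 ranked 40 to 68 in brightness among all probe sets and Csrp3 71 to 144.

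**Figure D3:**
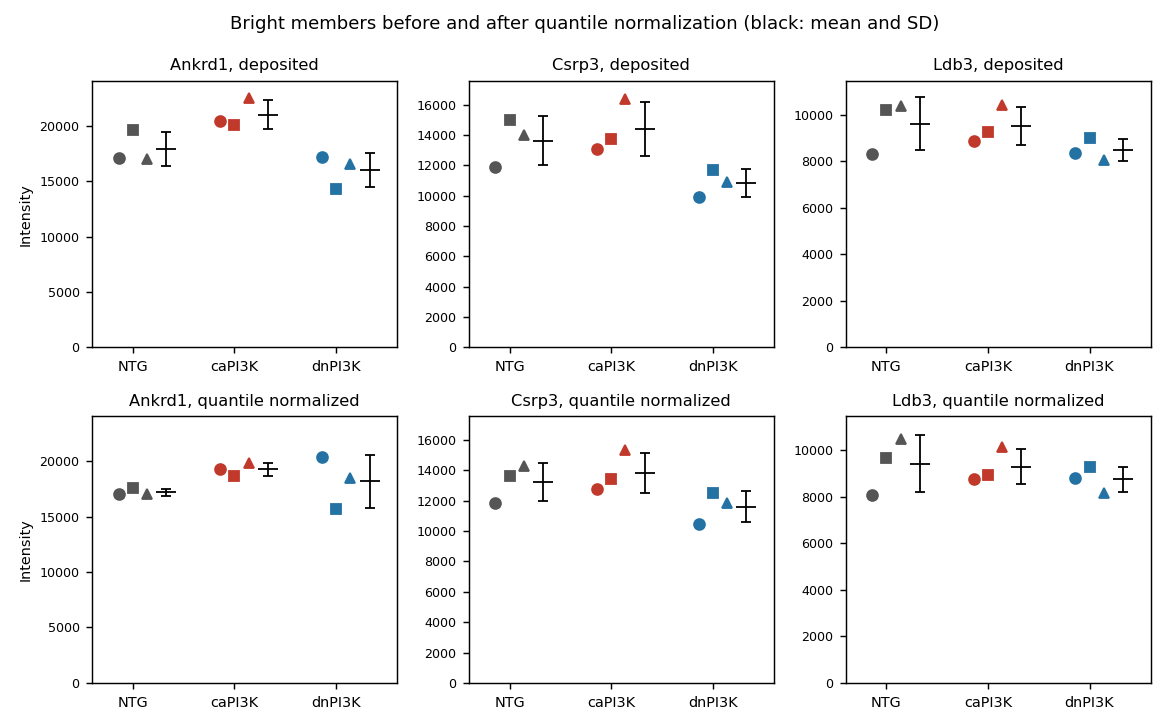
Intensity (arbitrary units, axis from 0) of Ankrd1, Csrp3 and Ldb3 as deposited (top) and after quantile normalization (bottom), with symbols for replicates and black bars for mean and SD. The dnPI3K mean of Ankrd1 is 16010 as deposited, below the NTG mean of 17920, and 18200 after normalization, above the NTG mean of 17190.

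The members did not share an order of animals within groups. Over the 8 genes, NTG replicate 2 was the highest NTG array in 4 (Ankrd1, Fhl1, Des and Actn2) and replicate 3 in 3 (Csrp3, Ldb3 and Xirp1). In dnPI3K replicate 1 was highest in 3 and replicate 2 in 4. Csrp3, Ldb3 and Xirp1 had the same highest array in NTG and in dnPI3K, and Csrp3 and Ldb3 also in caPI3K.

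For the 3 member probe sets with the lowest F test p, the genes with the most similar pattern over the 9 arrays were taken by Pearson correlation of log2 values. For Actn2 these were Entpd7 (r = 0.9502), Synrg (0.947) and Sdhaf1 (0.943), whose dnPI3K against NTG differences were -1.35, -1.41 and -0.58. For Fhl1 they were Ppa1 (0.951), Spock1 (0.949) and Rxrb (0.915) on the brighter probe set, and Mrpl11 (0.898), Pdzd11 (0.897) and Edem3 (0.892) on the dimmer. The 2 Fhl1 probe sets shared none of these genes. These are the highest of all tested genes by construction, so no p is given.

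Related genes were counted from lists chosen with earlier results of these data known, each gene by its brightest probe set. The list counts are therefore not independent of these data. Of 14 other structural Z-disc genes that were tested, 0 passed in any comparison (limma). At an unadjusted p under 0.05 there were 4 for caPI3K and 2 for dnPI3K against the controls, and 3 between the transgenic groups. Over all probe sets 6.9%, 14.8% and 16.4% had such a p in these comparisons. In caPI3K against NTG 11 of the 14 were above 0, with a median of 0.10, against 49.8% of all probe sets above 0. The smallest p were those of Pdlim7 (Enigma, a PDZ and LIM protein), at 524.2, 531.7 and 397.9 in NTG, 786.1, 767 and 733.7 in caPI3K and 441.8, 530.7 and 539.4 in dnPI3K, and of Nrap, a nebulin-related anchoring protein. The caPI3K arrays of Pdlim7 stood above all others. Its log2 difference was 0.67 ± 0.152 against NTG (limma adjusted p = 0.271) and 0.60 against dnPI3K (adjusted p = 0.0613, past the threshold in 5 of 20 other settings), and its other 2 probe sets were at -0.20 and 0.08 against NTG. Nrap was at 0.37 ± 0.161 against NTG (adjusted p = 0.705). In dnPI3K against NTG, where the median was 0.02, the non-muscle alpha-actinin Actn1 was at 0.37 (adjusted p = 0.228) and the capping protein Capzb at 0.43 (adjusted p = 0.266). Their other probe sets were at 0.27 and 0.06 for Actn1 and at 0.49 and 1.38 for Capzb. The small heat shock protein Cryab, which protects desmin and titin, was at 0.48 in caPI3K against dnPI3K (adjusted p = 0.0598).

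Of 12 other LIM, ankyrin and stretch signalling genes, Fhl2 alone passed, lower in dnPI3K than in either other group. The test called 1.16% of all probe sets lower in dnPI3K than in NTG and 1.7% higher in caPI3K than in dnPI3K. Fhl2 is the close relative of Fhl1 that is most abundant in the heart. It read 13070, 14970 and 14000 in NTG, 13920, 13570 and 15380 in caPI3K and 9427, 9489 and 9280 in dnPI3K. All dnPI3K arrays of Fhl2 were below all others and near one another. It fell by 0.57 on the log2 scale in dnPI3K against NTG (SE 0.0831, limma adjusted p = 0.00723) and was higher by 0.60 in caPI3K than in dnPI3K (adjusted p = 0.00337), while caPI3K and NTG differed by 0.03. Fhl1 did not fall with it: the Fhl1 differences in dnPI3K against NTG were 0.30 and 0.43 on the log2 scale, and the difference between both genes' changes was not tested. The Fhl2 calls were lost without an intensity trend in the variance (adjusted p = 0.0856 and 0.059) and kept under the other settings. The calcium protease Capn3, a titin-bound enzyme, was at -0.51 in dnPI3K against NTG (adjusted p = 0.204), at 0.21 in caPI3K against NTG and at 0.72 between the transgenic groups (adjusted p = 0.0572). Its other probe sets were at -0.71 and 0.10 in dnPI3K against NTG, so they did not share a direction. In caPI3K they were at 0.43 and 0.71 against NTG and at 1.14 and 0.61 against dnPI3K. Crip1 was at 0.16 in caPI3K against NTG. The list medians were 0.04, 0.02 and -0.01 in the 3 comparisons.

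Of 22 costamere, intermediate filament and intercalated disc genes, N-cadherin (Cdh2), the adhesion protein where myofibrils of neighbouring cells meet, passed. It read 3540, 3527 and 4578 in NTG, 3611, 4330 and 3611 in caPI3K and 2633, 2530 and 2629 in dnPI3K. The dnPI3K arrays were again below all others. Cdh2 fell by 0.57 in dnPI3K against NTG (SE 0.116, limma adjusted p = 0.0352) and was higher by 0.56 in caPI3K than in dnPI3K (adjusted p = 0.0271). The test called 1.16% of all probe sets lower in the former comparison and 1.7% higher in the latter. With arrays scaled to the same median the fall of Cdh2 was -0.45 with an adjusted p of 0.0920. The call against NTG was lost under 11 of 20 other settings, including without any one dnPI3K array (adjusted p = 0.0797, 0.127 and 0.0995) and without NTG replicate 2 or 3 or caPI3K replicate 1 or 3 (0.0549, 0.0520, 0.0526 and 0.0513). The call against caPI3K was lost under 8 of 20. Alpha-catenin (Ctnna1), which links cadherin to actin, was at 0.37 in dnPI3K against NTG (adjusted p = 0.0953), in the opposite direction to Cdh2. Talin 1 (Tln1), which links integrins to actin, was at 0.43 in caPI3K against dnPI3K (adjusted p = 0.0731). The other Tln1 probe sets were at -0.48 and 0.03 there. Of the desmosome genes, Dsg2 was at -0.47 and Dsp at 0.26 in caPI3K against NTG (adjusted p = 0.652 and 0.734). A dimmer Dsp probe set was at 0.13 in the same comparison. A dimmer Dsg2 probe set was at 0.09 there and at 1.99 in dnPI3K against NTG (limma adjusted p = 0.0516). In caPI3K against dnPI3K the dimmer one was at -1.90 and passed (adjusted p = 0.0494), and the brightest was at -0.67 (adjusted p = 0.0863). The list median was 0.01 in caPI3K and -0.14 in dnPI3K against NTG, with 13 of 22 genes below 0 in dnPI3K.

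Among 20 load-responsive and immediate early genes 2 rose in caPI3K against NTG, and 2 rose and 1 fell in dnPI3K against NTG. Of all probe sets 0.047% rose and 0.0376% fell in the former comparison, 1.01% and 1.16% in the latter, and 1.7% and 1.54% were higher and lower in caPI3K than in dnPI3K. Acta1 (log2 difference 1.19, limma adjusted p = 0.0255) and Myh7 (1.03, adjusted p = 0.0255), fetal contractile genes, rose in caPI3K, by 1.23 and 0.98 in animals numbered from 2800 and by 1.11 and 1.12 in those from 3100. Each lost the call under 10 of 21 other settings. Acta1 lost it without any one caPI3K array, dnPI3K replicate 3 or NTG replicate 2 or 3 (adjusted p = 0.0627 to 0.191), and Myh7 without caPI3K replicate 2 or 3, dnPI3K replicate 2 or 3 or NTG replicate 2 or 3 (0.0556 to 0.191). The Myh7 probe sets are of the family type, which can read close relatives. In dnPI3K Myh7 (1.42, adjusted p = 0.000574) and the matrix-associated Ccn2 (1.38, adjusted p = 0.00723) rose. A dimmer Myh7 probe set was at 0.6607 in caPI3K against NTG and did not pass (limma adjusted p = 0.8136). In dnPI3K against NTG the dimmer one was at 2.0035 and passed (adjusted p = 0.0443). Hbegf, the heparin-binding ligand of the EGF receptor, read 521.4, 562.8 and 579.8 in NTG, 667.4, 634.4 and 729.9 in caPI3K and 324.2, 288.1 and 294.2 in dnPI3K. The 3 groups of Hbegf did not overlap, with caPI3K highest and dnPI3K lowest. It fell by 0.88 in dnPI3K against NTG (SE 0.134, adjusted p = 0.00846), kept that call under all 20 other settings, and was at 0.29 in caPI3K against NTG (adjusted p = 0.721). Between caPI3K and dnPI3K Acta1 (1.26) and Hbegf (1.16) were higher and Ccn2 (-1.89), Nppa (-2.22) and Nppb (-0.63) lower (adjusted p = 0.00164, 0.00119, 0.000759, 0.0282 and 0.0428). The Nppb call was lost under 12 of 20 other settings, among them without any one caPI3K or dnPI3K array or NTG replicate 2. The Nppa call was lost under 8, among them without caPI3K replicate 1 or 2 or any one dnPI3K array. The members Ankrd1 and Csrp3, also known as genes of the overload response, did not pass in any of these comparisons.

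**Figure D4:**
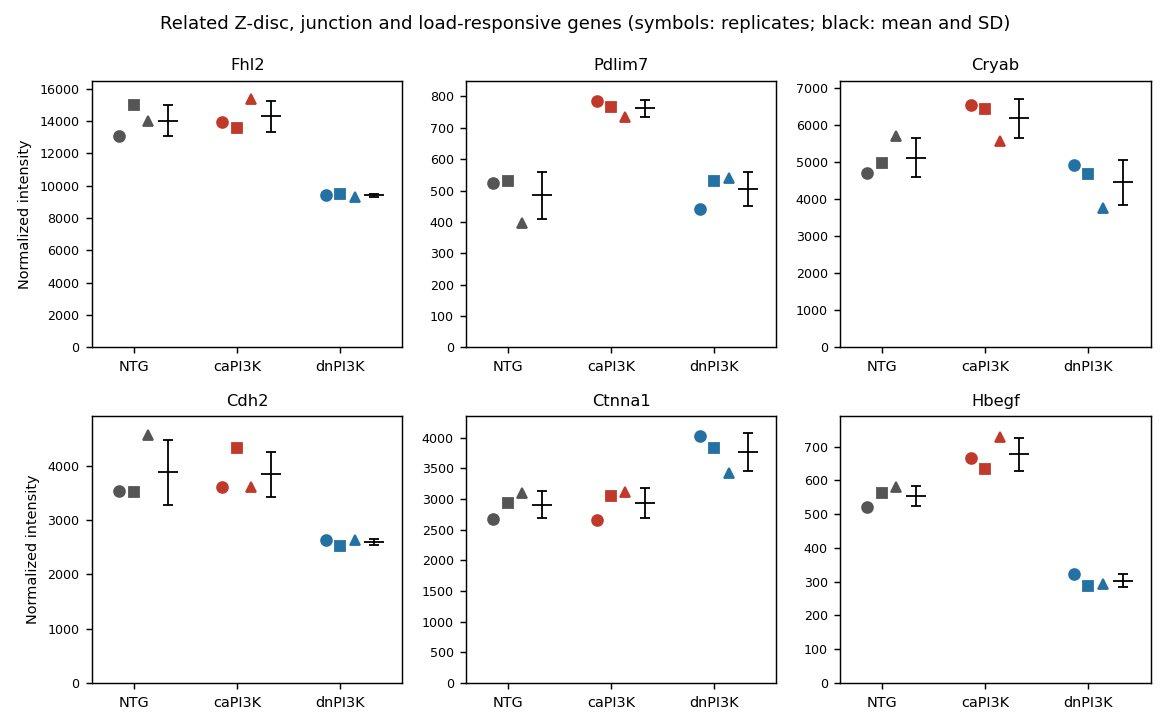
Normalized intensity (arbitrary units, axis from 0) of 6 related genes on 9 arrays, with symbols for replicates and black bars for mean and SD. The dnPI3K arrays of Fhl2 (9280 to 9489), Cdh2 (2530 to 2633) and Hbegf (288.1 to 324.2) lie below all others, and Pdlim7 is highest in caPI3K.

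The differences of Actn2 against dnPI3K, of Fhl1 against NTG and of Csrp3 between the transgenic groups kept their direction in all settings tried, and none passed the threshold. For Actn2 in dnPI3K against NTG the log2 difference lay between -1.02 and -0.65 over 20 settings with adjusted p of 0.0529 to 0.258 (limma). In caPI3K against dnPI3K that of Actn2 lay between 0.55 and 0.91 (adjusted p = 0.0676 to 0.318), and that of Csrp3 between 0.18 and 0.41 (adjusted p = 0.111 to 0.532). In dnPI3K against NTG the difference of Fhl1 lay between 0.28 and 0.61 on the dimmer probe set (adjusted p = 0.0628 to 0.425). On the brighter it lay between 0.15 and 0.42 (adjusted p = 0.264 to 0.600). In caPI3K against NTG the difference of Fhl1 lay between 0.29 and 0.57 on the brighter probe set (adjusted p = 0.364 to 0.921) and between 0.45 and 0.61 on the dimmer (adjusted p = 0.236 to 0.862).

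**Figure D5:**
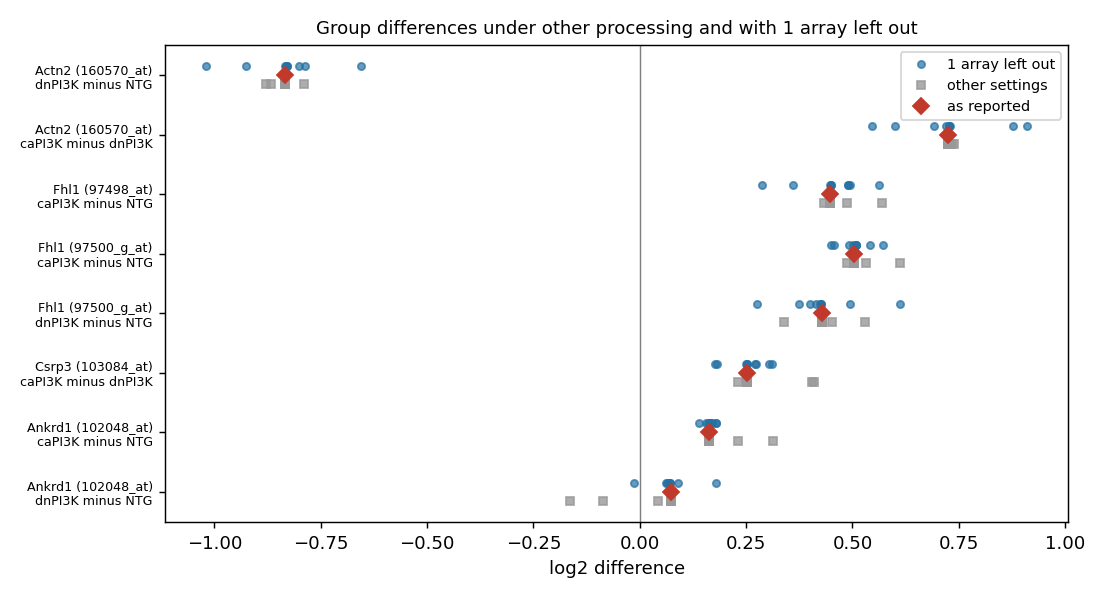
Log2 differences of 8 member comparisons as reported (diamonds), with a single array omitted (blue circles) and under other processing settings (grey squares). Only Ankrd1 in dnPI3K against NTG crosses 0 among those drawn, from -0.16 to 0.18.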

How the data were processed

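Gene expression in 9 mouse ventricles was measured on one-colour oligonucleotide arrays. Per the labels, the scanner ran at 10% photomultiplier gain. The deposited intensity values are linear, and each array was already scaled to a common trimmed mean. Software and scaling method: not given in the sources used here. Symbols came from the platform annotation (1 symbol for 10855 probe sets, several for 396, none listed for 1237).

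Groups were read from sample titles. Replicate numbers follow deposition order and pair no animals. Values were quantile normalized, floored at their 20th percentile (35.34) and log2 transformed. Probe sets above the floor on at least 3 of 9 arrays were tested (10645), without the 66 array controls, so 1 of 10 member probe sets dropped out. All 9 arrays entered 1 fit in limma 3.58.1 (R 4.3.3, intensity trend, 6 residual degrees of freedom), with two-sided Benjamini-Hochberg adjustment over all probe sets at 0.05. The fit was tested on simulated data. Level means and SD are of normalized intensities before the floor. Intensities of different probe sets were compared only to rank brightness, to choose the brightest probe set of a gene and to sum marker levels.

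The members and lists were chosen with earlier results of these data known. Named from the lists are genes past the threshold and up to 2 per list and comparison with the smallest p. Other settings were the deposited or median-scaled values, other floors and filters, other variance moderation, array weights, 1 probe set per gene, 2-group fits, the animal series as a block and each array left out.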

Additional observations from a re-analysis of the deposited data

How the results depend on the processing

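The count of member probe sets past the threshold was 0 in every comparison and in the F test under all settings run. Of 546 recomputed member differences 526 kept their sign and 20 did not, none of which passed. Without quantile normalization Ankrd1 in dnPI3K against NTG was at -0.1631, and with median scaling at -0.0855. Median scaling put Ldb3 in caPI3K against NTG at 0.0706, and array weights put it at 0.0326. With 1 array left out, the log2 differences that changed sign in caPI3K against NTG ranged from -0.0206 to 0.0769 for Xirp1, -0.0165 to 0.1176 for Csrp3, -0.1208 to 0.0682 for Ldb3, -0.2315 to 0.045 for Actn2 and -1.0295 to 0.0498 for Tcap. In dnPI3K against NTG the ranges were -0.0168 to 0.0507 for Des, -0.0143 to 0.1798 for Ankrd1 and -0.0407 to 0.0569 for Xirp1. In caPI3K against dnPI3K they were -0.0139 to 0.182 for Ankrd1, -0.7627 to 0.3168 for Tcap and -0.1038 to 0.2325 for the dimmer Fhl1 probe set. Tcap depended on single caPI3K arrays. Without caPI3K replicate 3 it changed sign in both comparisons of caPI3K, and without caPI3K replicate 2 it was at -1.0295 against NTG. Of the recomputed differences of other named genes, 62 lost a call and 22 gained one. Over all probe sets, calls ranged from 0 to 20 around 9 in caPI3K against NTG (0 with the animal series as a block), from 82 to 285 around 232 in dnPI3K against NTG and from 134 to 527 around 345 between the transgenic groups. Median scaling turned the split of the 232 from 108 higher and 124 lower to 135 and 93. The median of all differences stayed between -0.0392 and 0.0366. The causes were not tested. No paired analysis was possible because replicate numbers follow deposition order and the titles match no animal with another. The animal number series that caPI3K and NTG share entered as a block instead, with 0 member calls. Members read far above the floor, except the untested one of Fhl1, which was not above it.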
